A study of Homo sapiens with 4 samples.

Results

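The cytochrome P450 genes (CYP genes) considered here are 50 of the 20033 protein-coding genes annotated by GENCODE, a named list of enzymes for foreign and endogenous compounds. To ask how open their chromatin was, every ATAC-seq peak that overlapped the body of a member gene or the 10 kb on either side (its window) was taken. The peaks fell into 120 regions after merging across libraries, of 80551 regions in all. ATAC-seq reads out accessible chromatin through a transposase that inserts sequencing adapters into open DNA.

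The cells were HepG2, an established human liver cancer line with wild-type genotype in both groups. Controls were untreated (n = 2), and the others received 5 μM tazemetostat, a small-molecule inhibitor of the histone methyltransferase EZH2, for 48 h (n = 2). Each library came from 50000 cells of this 1 line, and the labels do not say whether replicates were separate cultures, so p-values measure the spread between these libraries only. The study asked how EZH2 inhibition alters chromatin accessibility in liver cancer cells. The label tissue was liver, and peaks lay at the 5' ends of 4, 4, 6 and 5 of 8 hepatocyte marker genes in control 1, control 2, tazemetostat 1 and tazemetostat 2, at 0 of 3 leukocyte and 0 of 2 endothelial markers in any library, and at 0, 0, 1 and 1 of 3 stromal markers. No peak was called within 1 kb of the GENCODE gene start of SERPINA1 or TTR. Regions farther inside both gene bodies were called in all 4 libraries, so other starts of these genes may be missed by this count. Regions called in all 4 libraries also lay in the bodies of the endothelial marker PECAM1 and the stromal markers PDGFRB and LRAT. The marker counts thus describe 5' ends only. Over all coding genes 34.9%, 41.1%, 51.9% and 49.0% had a 5' end peak in the same libraries.

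P450s are heme enzymes that insert an oxygen atom into their substrate, drawing electrons from NADPH through partner reductases. In hepatocytes the CYP1, CYP2 and CYP3 families are known for clearing drugs and toxins, and receptors such as AHR and the pregnane X receptor (NR1I2) raise their transcription when a foreign compound is sensed. Other families hydroxylate fatty acids, make bile acids and cholesterol, activate or destroy vitamins A and D, or make steroid hormones in adrenal and gonadal tissue.

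The RefSeq promoters of 8 members put the sequence beside the peak calls. Each stretch runs from 250 bases before to 50 bases after a RefSeq start (build GRCh38.p14), 5′ to 3′ on the gene's strand, and capitals mark CpG dinucleotides. The first 6 were overlapped by a region, in both tazemetostat libraries only for CYP2J2 and in all 4 libraries for the next 5, and the last 2 were overlapped by none.
CYP2J2, chr1:59926724-59927023, minus strand: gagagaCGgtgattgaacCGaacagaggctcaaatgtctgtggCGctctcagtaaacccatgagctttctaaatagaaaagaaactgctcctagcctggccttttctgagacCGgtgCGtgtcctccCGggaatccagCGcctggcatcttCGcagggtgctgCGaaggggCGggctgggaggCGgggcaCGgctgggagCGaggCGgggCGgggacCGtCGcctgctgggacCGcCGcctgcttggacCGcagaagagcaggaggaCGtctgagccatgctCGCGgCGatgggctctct
CYP39A1, chr6:46652769-46653068, minus strand: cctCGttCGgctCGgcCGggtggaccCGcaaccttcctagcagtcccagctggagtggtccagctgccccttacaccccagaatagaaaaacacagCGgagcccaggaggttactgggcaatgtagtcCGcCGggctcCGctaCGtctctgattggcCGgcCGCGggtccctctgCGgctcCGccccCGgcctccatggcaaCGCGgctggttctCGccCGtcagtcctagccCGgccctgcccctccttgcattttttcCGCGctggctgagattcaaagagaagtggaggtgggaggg
CYP2U1, chr4:107931299-107931598, plus strand: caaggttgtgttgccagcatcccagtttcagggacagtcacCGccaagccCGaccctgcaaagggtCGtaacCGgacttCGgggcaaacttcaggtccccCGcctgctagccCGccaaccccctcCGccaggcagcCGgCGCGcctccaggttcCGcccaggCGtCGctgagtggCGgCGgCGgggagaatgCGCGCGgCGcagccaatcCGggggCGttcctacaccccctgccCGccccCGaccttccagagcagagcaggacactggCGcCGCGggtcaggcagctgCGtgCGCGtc
CYP20A1, chr2:203238768-203239067, plus strand: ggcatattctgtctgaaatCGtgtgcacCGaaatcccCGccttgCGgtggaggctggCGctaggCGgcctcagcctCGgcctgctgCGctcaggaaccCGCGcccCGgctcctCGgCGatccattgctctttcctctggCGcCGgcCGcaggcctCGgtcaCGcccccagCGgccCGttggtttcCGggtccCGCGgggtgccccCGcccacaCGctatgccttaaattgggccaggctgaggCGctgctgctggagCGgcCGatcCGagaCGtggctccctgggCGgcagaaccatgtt
CYP2R1, chr11:14892182-14892481, minus strand: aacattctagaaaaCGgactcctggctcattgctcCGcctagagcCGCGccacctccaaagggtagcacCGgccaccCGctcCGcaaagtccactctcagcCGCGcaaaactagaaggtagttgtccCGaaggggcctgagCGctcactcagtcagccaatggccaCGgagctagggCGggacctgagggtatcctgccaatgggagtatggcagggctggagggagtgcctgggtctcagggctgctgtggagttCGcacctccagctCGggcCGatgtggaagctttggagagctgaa
CYP51A1, chr7:92134428-92134727, minus strand: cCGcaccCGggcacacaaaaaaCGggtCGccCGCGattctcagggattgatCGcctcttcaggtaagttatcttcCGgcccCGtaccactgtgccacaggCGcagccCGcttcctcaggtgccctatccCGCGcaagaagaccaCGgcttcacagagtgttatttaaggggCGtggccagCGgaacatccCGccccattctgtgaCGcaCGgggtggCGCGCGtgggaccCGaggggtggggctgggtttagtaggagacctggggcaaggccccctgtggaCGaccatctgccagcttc
CYP3A4, chr7:99784135-99784434, minus strand: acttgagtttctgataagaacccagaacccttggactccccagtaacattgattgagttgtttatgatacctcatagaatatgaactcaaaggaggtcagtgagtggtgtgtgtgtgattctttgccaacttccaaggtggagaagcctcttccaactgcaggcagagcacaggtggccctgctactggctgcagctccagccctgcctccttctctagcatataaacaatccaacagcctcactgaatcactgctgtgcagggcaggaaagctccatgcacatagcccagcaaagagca
CYP2E1, chr10:133527113-133527412, plus strand: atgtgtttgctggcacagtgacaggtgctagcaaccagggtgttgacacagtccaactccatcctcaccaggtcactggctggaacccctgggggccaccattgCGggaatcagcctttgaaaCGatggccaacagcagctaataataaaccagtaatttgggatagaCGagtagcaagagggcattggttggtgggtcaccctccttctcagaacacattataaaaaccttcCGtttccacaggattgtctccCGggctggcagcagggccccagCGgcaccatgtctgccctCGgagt
A promoter was given for 38 of the 50 genes, and 11 of these had a region over at least 1 promoter. Counting 1 promoter per gene, the 8 overlapped by a region called in all 4 libraries held a median of 23.5 CpGs (3 to 36), against 3 (0 to 29) in the 27 with no region. CYP4V2 held 36 and CYP4F3 held 3, so CpG-poor promoters were among the open ones. Over 27305 RefSeq promoters the medians were 26 where a region of all 4 libraries lay over the promoter and 7 elsewhere, a difference in the same direction as among the P450s.

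The number of peaks in P450 windows was 44 in control 1 and 53 in control 2, and 77 and 82 in tazemetostat 1 and 2. The groups did not overlap, with means of 48.5 ± 6.36 and 79.5 ± 3.54 (SD, n = 2 each), which is 31 peaks apart. A two-sided exact permutation test returned p = 0.33, and no design of 2 libraries against 2 can return a smaller one. As a share of all peaks of the library, P450 peaks were 0.168% and 0.152% in the controls and 0.139% and 0.151% under tazemetostat. The share was thus no higher under tazemetostat, while the whole lists grew from 26133 and 34768 peaks to 55313 and 54157. When the same number of peaks with the highest tag counts was taken from every library, the control lists had 44 and 39 P450 peaks and the tazemetostat lists 35 and 39. Mapped tags, at 17.2 M and 23.8 M (M, mega) for the controls against 19.8 M and 26.6 M for tazemetostat, overlapped between groups. The share of tags in peaks did not, at 4.32% and 5.69% in the controls against 11.51% and 9.81% under tazemetostat. The fragment length used by the peak caller was 200 bp in both controls and 144 bp in both tazemetostat libraries, and the extraction protocol names a DNase step for tazemetostat-treated cells without stating it for controls. Neither can be told apart from the treatment.

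Peaks were placed by their overlap with the gene. Those at the 5' end, within 1 kb of the gene start, numbered 14 and 14 in the controls and 22 and 19 under tazemetostat. The bodies held 17 and 22 against 29 and 31 peaks. Upstream flanks held 7 and 7 against 15 and 16 and downstream flanks 6 and 10 against 11 and 16. Each place therefore had more peaks in both tazemetostat libraries than in both controls, and the exact permutation p was 0.33 in each.

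**Figure D1:**
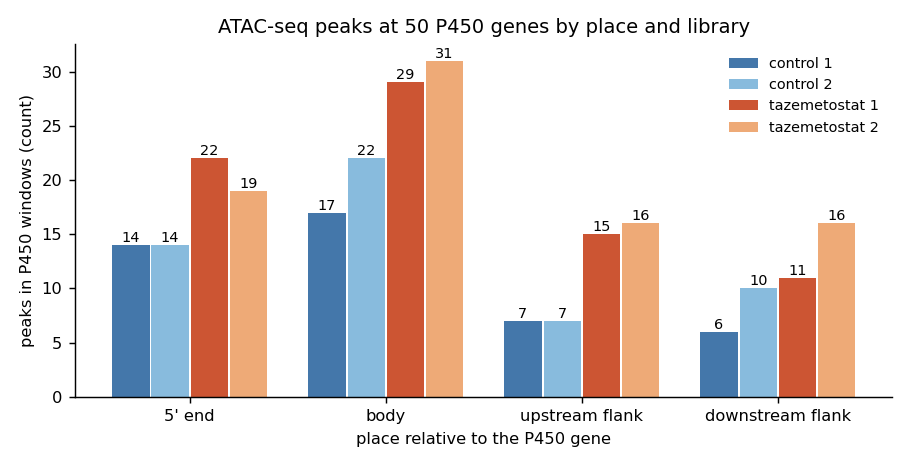
Peaks in the windows of the 50 P450 genes (y axis, count) by place relative to the gene (x axis), 1 bar per library. At the 5' end the controls had 14 and 14 peaks and the tazemetostat libraries 22 and 19, and each of the other places also had more peaks in both tazemetostat libraries.

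By gene, 31 and 33 of the 50 had a peak in the window in the controls and 38 in each tazemetostat library, which is 62%, 66%, 76% and 76%. Over all coding genes the shares were 63.1%, 69.2%, 81.8% and 79.9%. In any library, 44 of the 50 had a region, against 86.8% of coding genes. A 5' end peak was found at 13, 12, 20 and 17 genes (26%, 24%, 40% and 34%), below the 34.9%, 41.1%, 51.9% and 49.0% of all coding genes in the same libraries. In all, 24 members had a 5' end region in at least 1 library, against 56.6% of coding genes. The 11 members with a 5' end region in all 4 libraries (22%) stood against 30.7%.

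The 50 genes divided into 4 classes. A region called in all 4 libraries was present at 24 genes (48%), against 52.5% of coding genes. A further 7, CYP1B1, CYP2C18, CYP3A4, CYP11A1, CYP11B1, CYP21A2 and CYP24A1, had none but had a region in both tazemetostat libraries and neither control. At 13 genes only other combinations occurred: CYP2A6, CYP2A13, CYP2B6, CYP2D6, CYP4A11, CYP4A22, CYP4B1, CYP4F2, CYP7B1, CYP11B2, CYP17A1, CYP26B1 and CYP26C1. No peak was called in any library at CYP2A7, CYP2C8, CYP2C19, CYP4X1, CYP4Z1 and CYP26A1. CYP2C8 and CYP2C19 oxidize drugs and CYP26A1 clears retinoic acid, while CYP2A7 and CYP4X1 have few known substrates. A missing peak is not a tag count of 0, since the lists give no value there and the lowest listed tag counts were 6.4, 5.04, 5.04 and 4.89.

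**Figure D2:**
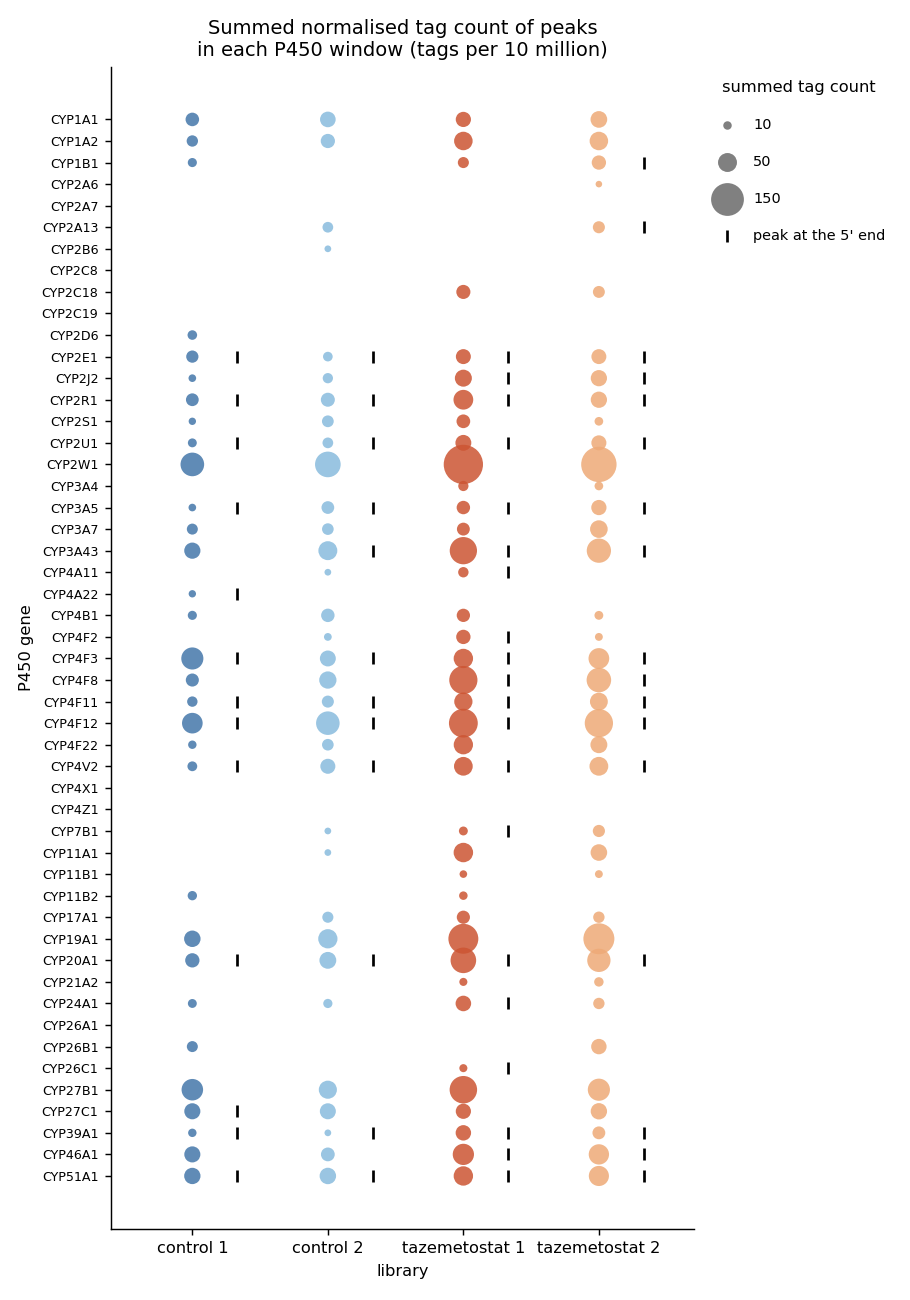
Summed normalized tag count of the peaks in each gene's window (dot area, tags per 10 M mapped tags) for the 50 P450 genes (y axis) in the 4 libraries (x axis), with a tick where a peak lay at the 5' end. CYP2C18, CYP3A4, CYP11B1 and CYP21A2 show dots in both tazemetostat libraries and none in the controls, and 6 genes have no dot.

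By mean tag count, the highest 5' ends were those of CYP4F12, CYP20A1, CYP4F3, CYP2R1 and CYP51A1. Values are normalized tag counts, the tags of a peak per 10 M mapped tags, given for control 1 and 2 and then tazemetostat 1 and 2. CYP4F12, a fatty acid hydroxylase, had 42.5, 49.6, 65.5 and 65.5 on chromosome 19 from 15672811 to 15673789 (hg38). CYP4F3, which hydroxylates leukotriene B4, had 25.6, 35.3, 52.4 and 44.8, the second and last as sums of 2 peaks. CYP20A1, an orphan enzyme with no settled substrate, had 28.5, 26.1, 71.6 and 57.6. In all 3 the lower tazemetostat value lay above the higher control value. That also held for 81.6% of the 15383 regions of the whole series with exactly 1 peak per library. CYP2R1, which starts vitamin D activation in liver, had 22.7, 27.3, 54.4 and 36.9. CYP51A1, the lanosterol demethylase of cholesterol synthesis, had 27.3, 20.6, 52.4 and 29.4, and a neighboring region had 9.89 and 17.2 in the controls and 21.5 in tazemetostat 2 alone. At both genes the groups did not overlap, and tazemetostat 1 was the higher of its pair.

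Lower but still called in all 4 libraries were CYP4F11, CYP4V2, CYP2U1, CYP39A1 and CYP2E1. CYP4F11, a fatty acid hydroxylase, had 15.1, 20.2, 46.4 and 44.4. CYP4V2, a fatty acid hydroxylase linked to a retinal dystrophy, had 13.4, 23.5, 34.8 and 33.9, and CYP2U1, which also acts on long-chain fatty acids, had 11.1, 16, 35.3 and 31.6. These groups did not overlap, beside the same 81.6% of all tested regions with both tazemetostat libraries above both controls. CYP39A1, which hydroxylates oxysterols on the way to bile acids, had 9.89, 6.3, 33.3 and 23, in a region that also spanned the 5' end of SLC25A27. CYP2E1, which oxidizes ethanol and acetaminophen, had 12.2, 13, 20.2 and 19.2 at the GENCODE gene start, which lies 6957 bp before the RefSeq start and within SCART1. At the RefSeq promoter of CYP2E1 printed above no peak was called.

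The remaining named 5' ends were called in part of the libraries. CYP46A1, a cholesterol hydroxylase best known from neurons, had 14.1 and 20 in the tazemetostat libraries and no control peak, a class it left when peaks had to overlap by 50% to be joined. CYP2J2, which makes epoxides from arachidonic acid, had 10.6 and 18.4 in the tazemetostat libraries alone, with local folds of 12.5 and 7.97, over the CpG-rich promoter printed above. CYP27C1, which acts on vitamin A, had 14.5 in control 1 alone. CYP24A1, which degrades active vitamin D, and CYP4F2, which hydroxylates vitamin E and fatty acids, each had 13.1 in tazemetostat 1 alone, with a second CYP4F2 peak of 8.57 there. Of the other 9 genes with a 5' end region, values ranged from 6.02 at CYP1B1 in tazemetostat 2 to 14.6 at CYP3A43 in tazemetostat 1, with CYP3A5 called in all 4 libraries.

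By role, all 4 genes of sterol and bile acid synthesis had a 5' end region in at least 1 library, as did 10 of 13 fatty acid genes, beside the 56.6% of all coding genes given above. Of the 15 drug and xenobiotic genes 5 had one, of the 7 vitamin genes 4, and of the 5 genes with few known substrates 1. The differences between roles were not tested. None of the 6 steroid hormone genes had one at the GENCODE start, although their windows held 22 regions. Of these, 12 were at CYP19A1 (aromatase), whose GENCODE body spans 130545 bp. Inside that body, a region called in control 1 alone lay over the RefSeq promoter on chromosome 15 from 51318448 to 51318747. A region called in both tazemetostat libraries and neither control overlapped the promoter from 51288289 to 51288588, there with a peak of tazemetostat 2 alone.

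Tazemetostat-only regions, called in both tazemetostat libraries and neither control, numbered 17 of the 120 (14.2%), against 13.7% of all regions. The share was near that background. They touched 14 of the 50 genes (28%), against 32.5% of coding genes, and the 5' ends of 3 genes (6%), against 6.49%. CYP46A1 and CYP2J2 above and CYP4F8, a prostaglandin hydroxylase with 14.1 and 6.4, were these 3. Bodies held 6 and each flank 4. The peaks were mostly low, with folds over the surrounding 10 kb from 4.1 to 18.9.

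The highest tazemetostat-only region lay in the downstream flank of CYP2W1, an enzyme known from fetal gut and colon tumors, on chromosome 7 from 992767 to 993553. Its normalized tag counts were 72.1 and 69.6, with local folds of 4.85 and 4.48. At CYP11A1, which cleaves the cholesterol side chain, an upstream region on chromosome 15 from 74374195 to 74374816 had 28.2 and 18.1. Those 2 regions stayed tazemetostat-only when equal numbers of peaks were taken from each library, and the other 15 did not.

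At 3 regions both peaks reached a local fold of 8. In an intron of CYP3A4, the main drug-oxidizing P450 of adult liver, a region on chromosome 7 from 99772632 to 99772988 had tag counts of 8.06 and 10.5 and folds of 9.41 and 18.9. Upstream of CYP2C18, a region on chromosome 10 from 94680503 to 94680945 had 20.7 and 10.5, with folds of 18 and 8.17. A region in the upstream flank of CYP2E1, on chromosome 10 from 133518482 to 133518857, had 11.1 and 12, with folds of 8.78 and 8.08. These 3 were the regions still tazemetostat-only when a fold of at least 8 was required of every peak. CYP3A4 had no 5' end peak in any library, and the only other peak in its window was 6.55 in tazemetostat 1.

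At CYP1B1, which metabolizes polycyclic hydrocarbons and estrogens, a region on chromosome 2 from 38076489 to 38077071 had 10.6 and 15.8. It lay 33122 bp inside the GENCODE gene but 296 bp from the start of another annotated transcript. A neighboring region, from 38075809 to 38076184, covered an annotated transcript start and had 11.6 in control 1 alone. The area was thus not without a control peak. CYP19A1 had 13.1 and 12.8 in a region centred in an intron, the one that overlapped a RefSeq promoter above. CYP24A1 had 10.1 and 10.5 in its downstream flank and CYP20A1 had 10.1 and 10.2 in an intron. The other 5 tazemetostat-only regions, at CYP2C18, CYP4F8, CYP11B1, CYP19A1 and CYP21A2, lay between 5.27 and 9.41.

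One region was control-only, 1 of 120 (0.833%, against 0.449% of all regions), so 1 of 50 genes had one in the window, against 1.35% of coding genes, and 0 at the 5' end, against 0.21%. It covered an exon of CYP4B1 on chromosome 1 from 46812264 to 46812793, with 11.6 and 10.1 and folds of 4.2 and 4.22. With an overlap of at least 50% required to join peaks it was no longer in that class. Of the other regions, 29 were called in all 4 libraries (24.2%, against 20.4%), 9 in both tazemetostat libraries and 1 control (7.5%, against 13.2%), 1 in both controls and 1 tazemetostat library (0.833%, against 0.883%), and 6 in 1 library of each group (5%, against 5.12%). A single tazemetostat library held 38 (31.7%, against 33.6%) and a single control 19 (15.8%, against 12.6%). Of these 57 11 were in control 1, 8 in control 2, 20 in tazemetostat 1 and 18 in tazemetostat 2.

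To compare accessibility where all 4 libraries gave a value, log2(normalized tag count + 1) was fitted with limma over the 15383 regions with exactly 1 peak per library. The added 1 makes changes of low values come out too small. Of the 26 P450 regions among these, 14 were higher under tazemetostat at an adjusted p below 0.05 and 0 were lower (17 and 0 at an unadjusted p below 0.05), against 42.7% higher and 0.247% lower of all tested regions. Both tazemetostat libraries lay above both controls in 22 of the 26, against 81.6% of all tested regions, and below both in 0, against 1.75%. The median change was 0.80 against 0.70 over all regions. After each library was centred on its median, which moved the median change of all regions from 0.70 to -0.06, 0 P450 regions were higher and 0 lower, against 0.0% of all tested regions either way. An unadjusted p below 0.05 was reached by 3 higher regions and no lower one. Trimmed-mean centring again left 0 and 0, and 4 regions with an unadjusted p below 0.05. The rises below are therefore relative to mapped tags and were not distinguished from the shift of all regions.

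**Figure D3:**
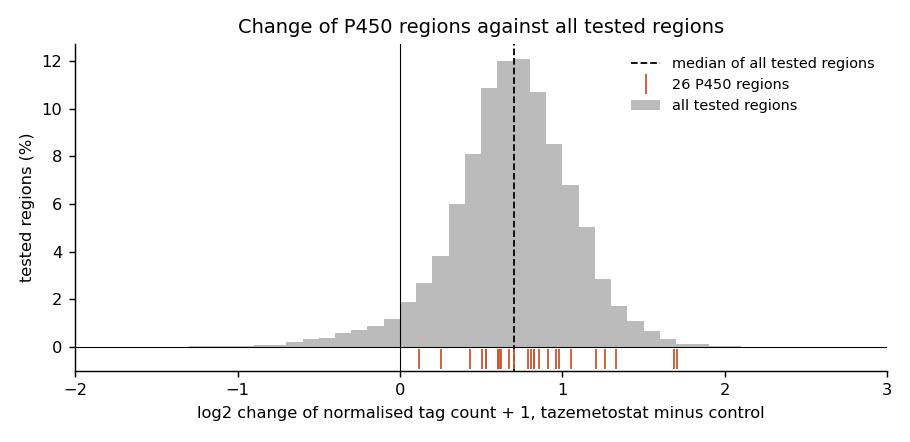
Log2 change of the normalized tag count + 1, tazemetostat minus control (x axis), for all 15383 tested regions (gray bars, y axis in % of regions) and the 26 P450 regions (ticks). The ticks run from 0.12 to 1.71 around the dashed median of all regions at 0.70.

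The largest rise was in an intron of CYP19A1 on chromosome 15 from 51298989 to 51299899. The controls had 15.7 and 7.56 and the treated libraries 36.3 and 39.9, a log2 change of 1.71 (SE 0.33, limma adjusted p = 0.00457). The CYP39A1 5' end followed with 1.69 (SE 0.32, limma adjusted p = 0.00423), then CYP4F11 with 1.33 (SE 0.30, limma adjusted p = 0.00796), CYP2U1 with 1.26 (SE 0.30, limma adjusted p = 0.00994) and CYP20A1 with 1.21 (SE 0.30, limma adjusted p = 0.0106). The values of the last 4 in every library are given above. After median centring their changes were 0.95, 0.93, 0.57, 0.50 and 0.45, with adjusted p from 0.350 to 0.568. Without tazemetostat 1 the 5 changes were 1.05 to 1.77 with a limma adjusted p of 0.226 each, and without tazemetostat 2 they were 1.34 to 1.94 with 0.0928 each. In those fits 0 of all tested regions passed the threshold. Per kb of peak CYP4F11 changed by 0.27 (limma adjusted p = 0.306), where its peaks were 300 and 499 bp long in the controls and 814 and 852 bp under tazemetostat, and the changes at CYP19A1, CYP39A1, CYP2U1 and CYP20A1 fell to 0.80, 0.67, 0.81 and 0.84, still past the threshold. The per kb fit was not centred. Over all tested regions its median change was 0.41 and 32.9% were higher.

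Of the 5 regions with the smallest changes, 4 had overlapping groups. CYP3A5, a drug-oxidizing relative of CYP3A4, had 8.14 and 11.3 against 8.57 and 12.8 at its 5' end, a log2 change of 0.12 (95% interval -0.53 to 0.76, limma adjusted p = 0.737). The region in the upstream flank of CYP1A1, which oxidizes polycyclic hydrocarbons, had 25.6 and 34 against 32.3 and 38.8, a change of 0.25 (95% interval -0.37 to 0.88, limma adjusted p = 0.449). In the body of CYP27C1 the values were 12.8 and 23.1 against 22.7 and 24.5, and in that of CYP2S1, an extrahepatic P450, 7.56 and 11.3 against 18.1 and 10.5. Those changes were 0.43 and 0.53, with limma adjusted p of 0.233 and 0.157. The 5' end of CYP4F12, in the values given above, changed by 0.50 (limma adjusted p = 0.143). All 5 turned below 0 after median centring, which lowers every change by the same amount, so this follows from their being the smallest. Of the 26 P450 regions 14 stayed above 0.

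**Figure D4:**
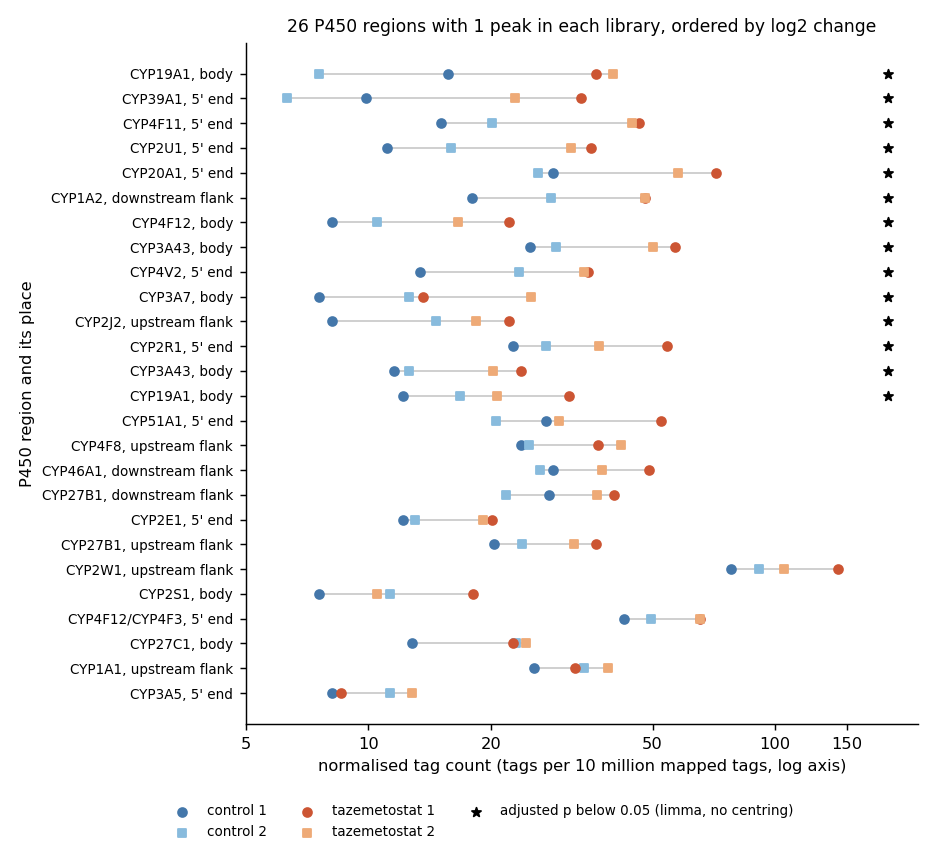
Normalized tag counts (x axis, log scale, tags per 10 M mapped tags) of the 26 P450 regions with 1 peak in each library (y axis, ordered by log2 change), 1 point per library. Stars mark the 14 regions with a limma adjusted p below 0.05 before centring, and no region has one after it.

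Some P450 genes stand in tandem arrays, so neighboring genes share windows and related sequence. The counts by array below stand beside 20.4% of all regions called in all 4 libraries and 56.6% of coding genes with a 5' end region, and no difference between arrays was tested. The CYP4F array on chromosome 19 had 14 regions, 7 of them called in all 4 libraries, and 5 of its 6 genes had a 5' end region. Its summed normalized tag counts were 134 and 185 for the controls against 354 and 319 for tazemetostat. The sums of this and the other arrays stand beside the share of mapped tags in all peaks of a library. That share was 4.32% and 5.69% in the controls against 11.51% and 9.81% under tazemetostat. The 5' end region of CYP4F12 also lay in the downstream flank of CYP4F3, and that of CYP4F3 in the downstream flank of CYP4F8. In the flank of CYP4F22, a ceramide-making enzyme of skin, 9.89 and 18.9 stood against 51.9 and 39.9, a region with several peaks in 1 library that entered no test. The peaks there spanned 300 and 464 bp in the controls against 828 bp (summed over 2 peaks) and 907 bp under tazemetostat, so the tag counts cover unequal lengths. Those tag counts were the only ones called in the CYP4F22 window.

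The CYP3A array on chromosome 7 had 11 regions, 4 of them called in all 4 libraries, and summed tag counts of 61.6 and 91.5 in the controls against 167 and 168 under tazemetostat. Its highest region lay in an intron of CYP3A43, with 25 and 29 against 56.9 and 50.1, and was 0.96 higher in log2 (SE 0.30, limma adjusted p = 0.0204). CYP3A7, the fetal liver form, had 7.56 and 12.6 against 13.6 and 25.2 in an intron. The RefSeq promoters of CYP3A4 and CYP3A7 were 94.0% identical over 300 bases, and those of CYP2A6 and CYP2A7 95.7%. The treatment of tags matching several such copies is not given in the sources used here, so counts at these paralogs, and at CYP2D6 and CYP21A2, which have near-identical pseudogene copies, are uncertain.

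**Figure D5:**
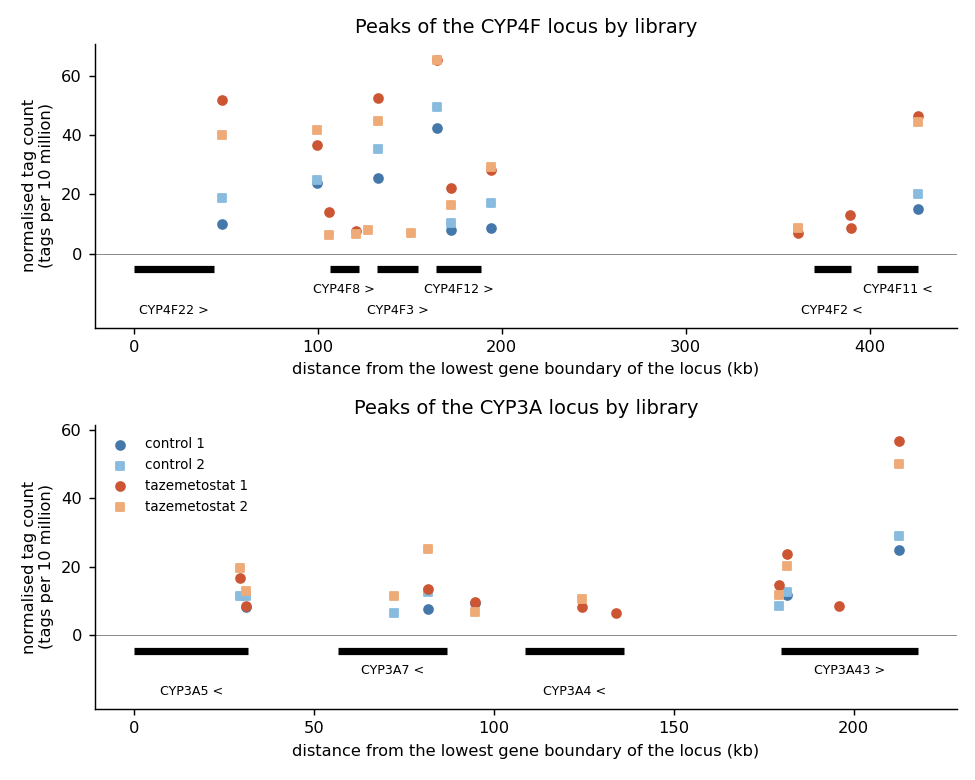
Normalized tag counts (y axis, tags per 10 M mapped tags) of the peaks along the CYP4F and CYP3A arrays (x axis, distance in kb from the lowest gene boundary), 1 point per region and library, summed where a library had several peaks. Bars mark gene bodies and arrows their strand, and the CYP4F12 5' end is the highest point of the upper panel at 65.5.

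The CYP2A, CYP2B and CYP2S genes on chromosome 19 had 7 regions over 4 of 5 genes, 1 of them in all 4 libraries, with summed tag counts of 7.56, 41.6, 26.2 and 36.9. The CYP2C genes had 2 regions, both at CYP2C18 and both tazemetostat-only. In the array of CYP4A11, CYP4A22, CYP4B1, CYP4X1 and CYP4Z1 no region was called in all 4 libraries, and summed tag counts were 19.2, 31.5, 39.8 and 10.9, so that tazemetostat 2 was the lowest library. The CYP1A pair had 1 region each, both called in all 4 libraries. The CYP1A2 region had 18 and 28.2 against 47.9 and 47.8 in the downstream flank, a rise of 1.05 (SE 0.31, limma adjusted p = 0.0172). CYP11B1 and CYP11B2, which make cortisol and aldosterone, had 3 regions and CYP26A1 with CYP26C1, which clear retinoic acid, had 1.

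Motifs of liver factors were searched on both strands in the central 300 bp of every region. HNF4 (CAAAGTCCA or CAAAGTTCA) was found in 3 of the 120 P450 regions (2.50%), against 2.92% of 78220 regions on the primary chromosomes. FOXA (TGTTTAC) was found in 10 (8.33%, against 8.24%), CEBP (TTGCNNAA) in 11 (9.17%, against 13.4%), AHR (TNGCGTG) in 4 (3.33%, against 4.29%), HNF1 in 0 (against 0.0294%) and CTCF in 3 (2.50%, against 2.90%). The CEBP and AHR shares were below those of all regions and the others close to them, with no test. A match is a description of the letters and not a bound site. The 3 windows below, chosen after their values were seen, show such matches in capitals (hg38, plus strand). The CYP1A1 window holds an AHR match in the region with the second smallest change, the CYP4F12 window an HNF4 match in a region called in all 4 libraries, and the CYP3A43 window 2 CEBP matches and 1 FOXA match just before the gene. Motifs in these windows did not overlap each other.
CYP1A1 upstream flank, chr15:74730963-74731262, plus strand: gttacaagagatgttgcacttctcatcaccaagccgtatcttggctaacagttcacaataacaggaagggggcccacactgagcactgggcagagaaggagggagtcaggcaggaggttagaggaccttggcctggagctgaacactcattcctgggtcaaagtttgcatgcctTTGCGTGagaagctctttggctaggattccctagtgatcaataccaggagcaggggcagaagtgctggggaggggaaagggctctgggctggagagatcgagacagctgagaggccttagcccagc
CYP4F12 body, chr19:15680987-15681286, plus strand: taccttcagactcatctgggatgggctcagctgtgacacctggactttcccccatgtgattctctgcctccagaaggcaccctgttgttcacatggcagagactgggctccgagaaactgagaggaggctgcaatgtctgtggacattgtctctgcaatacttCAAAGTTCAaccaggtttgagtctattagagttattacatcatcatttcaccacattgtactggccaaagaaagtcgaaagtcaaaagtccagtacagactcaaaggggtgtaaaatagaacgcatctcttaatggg
CYP3A43 5' end, chr7:99827195-99827494, plus strand: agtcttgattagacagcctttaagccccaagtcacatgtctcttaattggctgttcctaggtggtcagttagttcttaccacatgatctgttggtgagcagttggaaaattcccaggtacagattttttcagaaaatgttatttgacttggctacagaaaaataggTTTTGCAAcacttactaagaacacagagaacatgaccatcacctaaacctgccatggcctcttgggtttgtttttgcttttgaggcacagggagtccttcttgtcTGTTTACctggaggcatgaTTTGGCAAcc
The CYP4F12 body region had 8.14 and 10.5 against 22.2 and 16.6 and rose by 0.98 (SE 0.30, limma adjusted p = 0.0210). The CYP3A43 5' end had no value in control 1, 8.4 in control 2, and 14.6 and 11.7 under tazemetostat.

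In the promoters themselves, HNF4 matches were found in 5 of the 27 member promoters that no region overlapped and in 1 of the 11 with a region, against 0.659% of 27305 promoters. The 5 were CYP2A6, CYP2A7, CYP2A13, CYP2B6 and CYP2C8, and the 1 was CYP2R1. The 30 bases around each match show the shared letters, with the match in capitals, on the reverse strand for CYP2B6 (GRCh38.p14, 5′ to 3′ on the gene's strand).
CYP2A6, chr19:40850484-40850513, minus strand: tgtaatcagcCAAAGTCCAtccctcttttt
CYP2A7, chr19:40882268-40882297, minus strand: tgtaattagcCAAAGTCCAtccctcttttt
CYP2A13, chr19:41088385-41088414, plus strand: tataatcaacCAAAGTCCAtccctcttttt
CYP2B6, chr19:40991041-40991070, plus strand: cttgctcaccTGGACTTTGatatctctacc
CYP2C8, chr10:95069531-95069560, minus strand: atccatgggcCAAAGTCCActcagaaaaaa
CYP2R1, chr11:14892378-14892407, minus strand: acccgctccgCAAAGTCCActctcagccgc
The CYP2A promoters are 90.7 to 95.7% identical, so their matches are copies of 1 sequence rather than separate observations. A farther CYP26A1 promoter also held a match, and no peak was called there.

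Electron partners and regulators of P450s were described by counts. Of 8 redox partner genes, among them the reductase POR and cytochrome b5 (CYB5A), 5 had a 5' end peak in each library, against 34.9%, 41.1%, 51.9% and 49.0% of coding genes. The 5 were not the same genes in every library, and only CYB5A, FDXR and PGRMC1 had one in all 4. Of the 12 tested regions of the 8 redox partners 6 were higher and 0 lower in limma (median change 0.75), against 42.7% and 0.247% of all tested regions, with 0 and 0 after median centring. The 5' end of CYB5A had 39.6, 41.6, 64.5 and 61. That of POR had a single peak of 11.1 in control 1, although 5 of its regions were called in all 4 libraries. Of 8 xenobiotic regulators 2, 2, 3 and 4 had a 5' end peak, and of 18 tested regions 11 were higher and 1 lower (median change 0.85), beside the same 42.7% and 0.247%, again with 0 and 0 after centring. The lower one, named after its value was seen, lay in the body of AHRR, the AHR repressor, with 33.2 and 46.6 against 14.1 and 21.8. The merged region at the 5' end of NR1I2 had no peak in control 1, 7.56 in control 2, 14.1 in tazemetostat 1 as the sum of 2 peaks, and 20 in tazemetostat 2. The control 2 peak itself lay outside the 1 kb around the start and is not among the 5' end peaks counted above. AHR had no peak at its GENCODE start in any library, although regions in its body were called in all 4 libraries. The one farthest from that start, on chromosome 7 from 17298324 to 17299484, had 7.56, 9.66, 14.1 and 34.6. Other starts of AHR may be missed by the 5' end count, as at SERPINA1 and TTR.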

How the data were processed

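As stated per the labels, reads were trimmed with Trim Galore 0.6.6, and the authors aligned them to hg38 (Bowtie2 2.3.5.1) and called peaks in each library separately with HOMER 4.11.1. A false discovery rate of 0.001 was set, per the file headers, and a fold of at least 4 over the surrounding 10 kb was required, and neighboring peaks were stitched. The deposited normalized tag count is a signal, tags per 10 M (mega) mapped tags. The deposited fold over local background, a ratio, was used as a filter and printed. The deposited clonal fold ratio, peak caller score and p-value columns were not used.

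Peaks sharing 1 bp or more were merged and assigned to GENCODE release 44 genes (body and 10 kb on either side, 5' end within 1 kb of the gene start) with Python 3.11.15 and pandas 2.3.3. Values per library were compared by the exact permutation test, two-sided. limma 3.58.1 in R 4.3.3 (lmFit, eBayes, no block) used log2(normalized tag count + 1) with Benjamini-Hochberg adjustment over all 15383 tested regions and a threshold of 0.05. On simulated counts with no shift of all regions between groups, it recovered 89.5% of 200 regions changed 3-fold, with 2.72% false among its calls. The real regions had a median change of 0.70, so these rates do not carry over to the 14 calls made before centring. RefSeq promoters came from a table of build GRCh38.p14. CTCF was searched as a 12-letter consensus.

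The members, gene lists and tests were chosen with earlier results of these data known. Named in full are the 15 members with the highest 5' end region, the 12 highest tazemetostat-only regions, the control-only region, the 5 largest and 5 smallest changes in limma, and POR, CYB5A, NR1I2 and AHR. Other values belong to arrays, to the printed windows or to further regions of named genes and were chosen after they were seen. Precision is limited by depth (17.2 M to 26.6 M tags) and by 2 libraries per group. Groups and replicate numbers come from the sample titles.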

Additional observations from a re-analysis of the deposited data

How the results depend on the processing

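More P450 peaks, genes with a peak and genes with a 5' end peak under tazemetostat were seen with a local fold of at least 8, a 5 kb flank and other definitions of the 5' end, although at that fold genes with a 5' end peak overlapped between groups (4 and 1 against 6 and 2, exact permutation p = 0.67). Taking an equal number of peaks per library turned the differences to -4.5, -3 and -1. Leaving out 1 library gave 26.5 to 35.5, 5 to 7 and 4.5 to 7.5. Tazemetostat-only regions numbered 3 with the stricter fold, 2 with equal peaks and 18 to 38 without 1 library, which relaxes the definition. Control-only regions numbered 2, 2 and 1 to 12, and 0 with 50% overlap. In limma, higher regions numbered 0 after median centring, 0 after trimmed-mean centring (chosen after seeing the data), 9 of 18 tested with a mean tag count of at least 20, and 0 to 16 without 1 library: 5 without control 1, 0 without tazemetostat 1 and 0 without tazemetostat 2, where 0 of all tested regions were higher and 9 and 14 P450 regions had an unadjusted p below 0.05. After median and trimmed-mean centring the change was -0.23 and -0.16 at CYP2S1, -0.26 and -0.19 at CYP4F12, -0.33 and -0.26 at CYP27C1, -0.51 and -0.44 at CYP1A1, and -0.64 and -0.58 at CYP3A5. CYP3A5 also turned to -0.098 without control 1 and -0.15 without tazemetostat 2 (-0.15 to 0.38 over the 4). Each centring lowers all changes by the same amount, and the cause of the turns of CYP3A5 without 1 library was not tested. The replicate numbers did not pair the libraries (r = -0.0025 over 15383 regions, and only 2 pairs). With the replicate block limma called 10 higher and 0 lower, against 32.8% higher of all tested regions. Per kb of peak it also called 10 and 0, against 32.9% higher. With a fold of at least 8 no P450 region could be fitted, and count-based tests (edgeR, DESeq2) were not run because the deposited values are rounded. Depth limits peak calls at low tag counts.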
